A study of Mus musculus with 2 samples.

Results

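The Nduf genes encode the nuclear part of mitochondrial complex I and several of the proteins that build it. They were found by name, as every gene symbol starting with Nduf in the deposited transcript tables, which gave 42 genes of the 23329 listed. By name, 38 of them are structural subunits (Ndufa, Ndufab, Ndufb, Ndufc, Ndufs and Ndufv) and 4 are assembly factors (Ndufaf1 to Ndufaf4). RNA came from whole brain of wild-type C57BL/6 mice, and 2 libraries were compared. One was made from total homogenate. The other was made from a synaptosome fraction, collected between 3% and 10% Percoll after nuclei had been spun down. Synaptosomes are nerve endings that pinch off and reseal when brain is homogenised, and such a fraction also holds pieces of other cells. Both titles carry the same number after the genotype and end in the same tag, whose meaning the labels do not give. Neither the age of the mice nor how many brains went into a library is stated. Neither fraction was replicated, so every ratio below compares these 2 libraries only, no p-value is given, and intervals cover counting error alone.

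Complex I takes electrons from NADH, passes them through a chain of iron-sulphur clusters to ubiquinone, and uses the energy to pump protons across the inner mitochondrial membrane. It is L-shaped. One arm stands in the matrix and holds the N module, where NADH is oxidised, and the Q module, where ubiquinone is reduced. The other arm lies in the membrane and does the pumping, in parts named after the mitochondrially encoded subunits around which they form (ND1, ND2, ND4 and ND5). A set of 7 nuclear-encoded core subunits carries the chemistry and is conserved in bacteria. Accessory subunits surround and stabilise the core. Assembly factors help to put the pieces together and do not stay in the finished enzyme. Nerve endings hold many mitochondria, whose nuclear-encoded proteins are made from mRNAs that may lie in the cell body or out in the processes.

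The libraries held 15210857 (homogenate) and 13709539 (synaptosome) estimated counts. Ratios were scaled by TMM, a method that takes the typical gene as unchanged, so a log2 ratio of 0 means the ratio of the typical gene. Over the 14153 genes that averaged 1 CPM or more (CPM being counts relative to the library's total), the median log2 ratio was -0.01. Of these genes, 5200 had a counting interval above 0 and 5085 had one below 0. An interval that excludes 0 was thus common and does not by itself mark a gene out. With library totals in place of TMM every log2 ratio moved by -0.49, so the signs below are signs relative to the typical gene. The tissue label was checked against markers, and all 10 neuronal, 10 astrocyte and 8 oligodendrocyte markers were detected in both libraries. Markers of several cell types moved between the fractions. By a rule of at least 2-fold with a counting interval excluding 0, 9 of 10 astrocyte markers were higher in the synaptosome fraction, against 12.8% of all genes tested (summed level 5306 CPM in homogenate, 15621 CPM in synaptosomes) and 0 were lower. Of 8 endothelial markers, 7 were lower, against 9.10% of all genes (217 and 20.4 CPM), and of 7 nuclear noncoding RNAs, 6 were lower (11482 and 1964 CPM). Of 8 microglial markers, 5 were higher (276 and 391 CPM). Neuronal and oligodendrocyte markers split. Of 10 neuronal markers, 1 was higher and 4 were lower, with a median log2 ratio of -0.62 and a range from -1.42 for Snap25 to 1.85 for Camk2a. Their sum was 10481 and 11272.5 CPM, and without Camk2a it was 8118 and 5217 CPM. Of 8 oligodendrocyte markers, 2 were higher, and 3 others had intervals below 0, with a range from -0.51 for Cldn11 to 2.41 for Mbp. Their sum was 9178 and 19616 CPM, and without Mbp it was 5361 and 5229 CPM. No listed marker was at 0 in either library. The part of these shifts in the Nduf ratios was not tested. In bulk RNA of a fraction, fewer pieces of a cell type and less RNA per piece cannot be told apart.

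The structural subunits lay close to the typical gene, and the assembly factors lay somewhat below them. All 42 genes passed the filter of 1 CPM. By the 2-fold rule 1 member, Ndufb9, was higher in the synaptosome fraction and 2, Ndufaf4 and Ndufa4l2, were lower, against 12.8% of all genes tested that were higher and 9.10% that were lower. On both sides the family held a smaller share of such genes than all genes tested did, but these shares depend on abundance. Between 30 and 100 CPM, where 25 structural members lay, 11.6% of all genes were higher and 4.73% lower. At 100 CPM or more, where 10 lay, 27.3% were higher and 4.12% lower. The 1 of 42 members that was higher, Ndufb9, lay in the second of these ranges, and 1 of 42 is below both shares of higher genes. The 2 that were lower lay in neither range, with Ndufaf4 at 24.5 CPM and Ndufa4l2 at 1.36 CPM. Between 10 and 30 CPM 7.78% of all genes were lower, and between 1 and 10 CPM 17.5% were. At 1.5-fold, 6 members were higher and 2 lower, where 24.0% of all genes were higher and 20.9% lower. The structural subunits had a median log2 ratio of 0.23, and 27 of 38 were above 0. With library totals that median was -0.26 and 10 of 38 were above 0, while the number above the median of all genes was 27 of 38 under either scaling. The middle 50% of them lay between -0.02 and 0.48, a span of 0.49, where the middle 50% of all genes spanned 1.10. These spans were not matched for abundance. All genes include 4046 at 1 to 10 CPM, where counting error is larger, and 2 structural members lay there. The 4 assembly factors had a median of -0.24, and 1 of 4 was above 0. The difference between the medians, 0.47, is the same under every scaling by 1 factor per library. It became 0.30 without Ndufaf4, the lowest assembly factor. No test of this difference was possible.

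**Figure D1:**
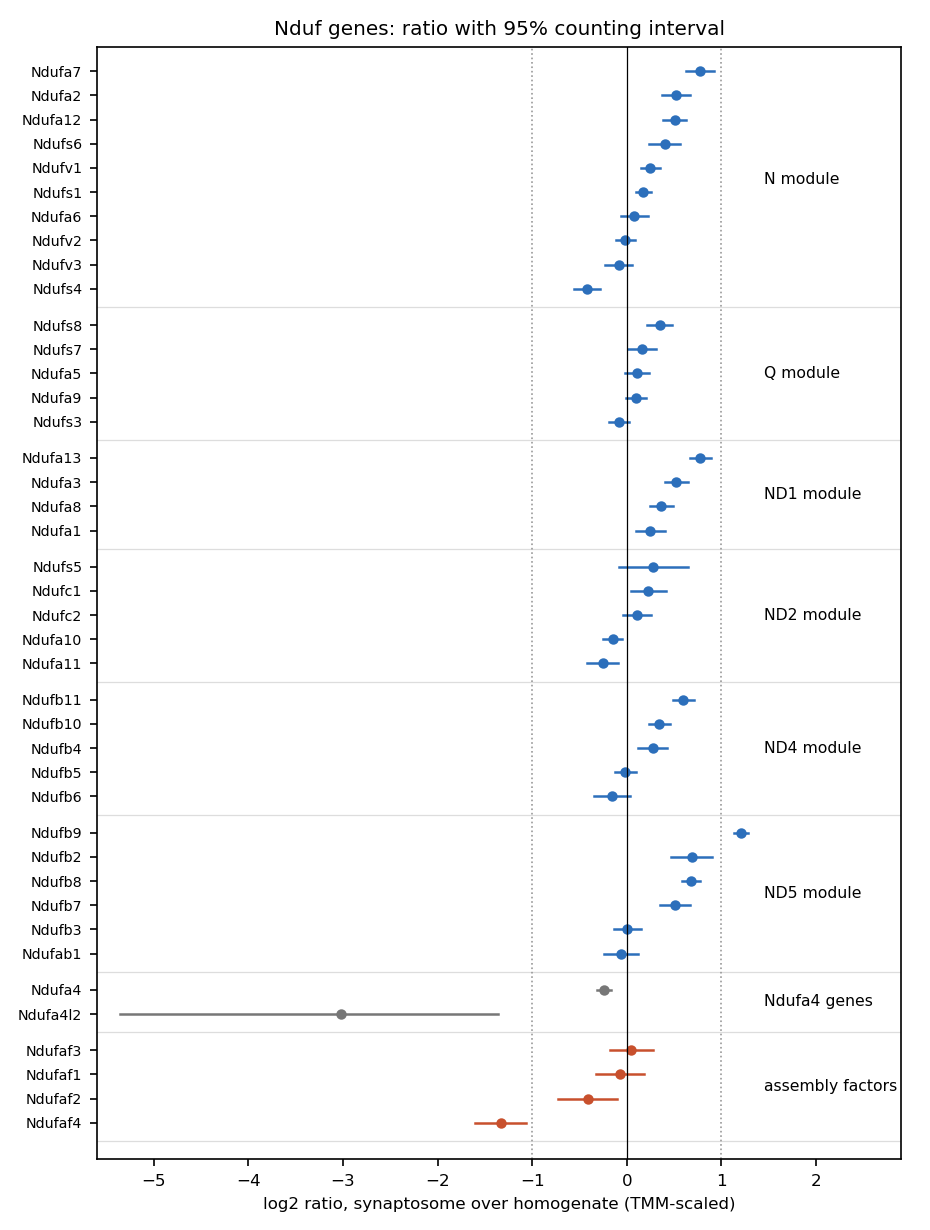
Log2 ratio of synaptosome over homogenate (x axis, TMM-scaled) for the Nduf genes, grouped by the part of complex I they belong to. Points are ratios, bars are 95% counting intervals, and dotted lines mark 2-fold. Ndufb9 alone lies past 2-fold on the right, and Ndufaf4 and Ndufa4l2 on the left.

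As a share of all counts, the structural subunits made up 0.336% of the homogenate (95% Clopper-Pearson interval 0.333 to 0.339) and 0.288% of the synaptosome fraction (0.285 to 0.290). The assembly factors made up 0.0106% (0.0101 to 0.0111) and 0.00556% (0.00517 to 0.00597). Both shares were smaller in the synaptosome fraction, but they are shares of library totals, by which the typical gene was lower too. With library totals the median log2 ratio of all genes tested was -0.51. That of the structural subunits was -0.26, above it, and that of the assembly factors was -0.73, below it.

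Abundance went with the ratio among all genes, as did short length, and both have to be read beside these medians. All genes tested with a mean of 100 CPM or more had a median log2 ratio of 0.43, while the 10 structural subunits in that range had 0.13. Between 30 and 100 CPM the medians were 0.03 for all genes and 0.25 for 25 structural subunits. Between 10 and 30 CPM, where all 4 assembly factors fell, all genes had a median of -0.11 and the assembly factors one of -0.24. By transcript length, genes under 750 bases had a median of 0.33, and the 22 structural subunits of that length had 0.31. The longer classes showed no steady trend, at 0.02 for 750 to 1500 bases, -0.09 for 1500 to 3000 bases and 0.01 for 3000 bases and above, and the structural subunits had -0.02 in the first of these and 0.17 in the next. Ndufaf4, at -1.33, was the one member in the longest class. The part of abundance and length in the gap between subunits and assembly factors was not tested.

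**Figure D2:**
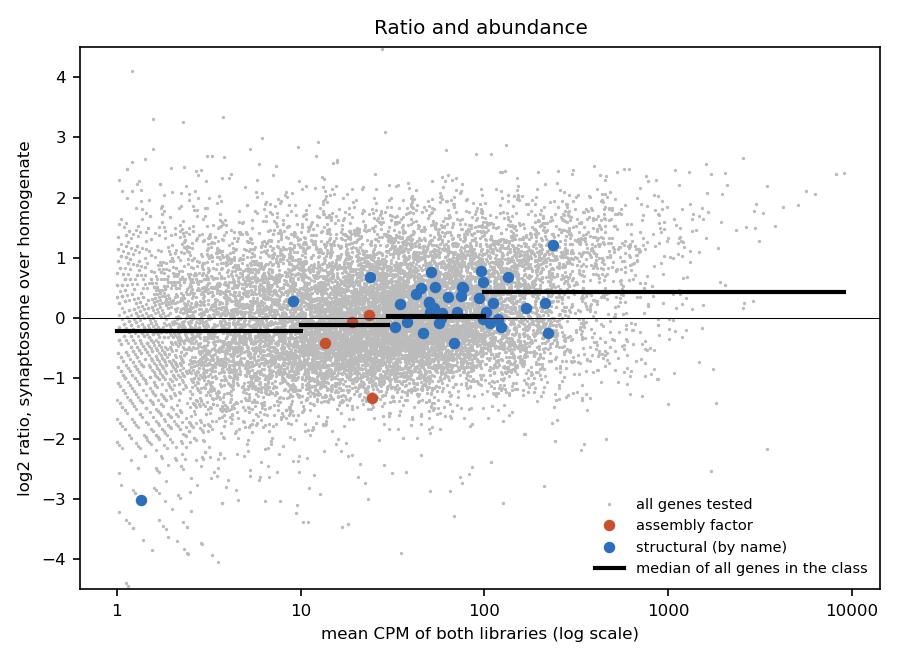
Log2 ratio of synaptosome over homogenate (y axis, a few genes beyond its ends not drawn) against the mean CPM of both libraries (x axis, log scale) for all genes tested (grey) and the Nduf genes (blue, structural by name; orange, assembly factors). Black bars are the medians of all genes in 4 abundance classes, from -0.21 at 1 to 10 CPM to 0.43 at 100 CPM and above.

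The 7 core subunits spanned a narrow range, from -0.08 for Ndufs3 to 0.35 for Ndufs8, with a median of 0.17. None was 2-fold different. Ndufv1, which binds NADH and the flavin, had 1846 counts in homogenate and 1403 in synaptosomes, a log2 ratio of 0.25 (95% counting interval 0.15 to 0.35). Ndufv2, its partner with an iron-sulphur cluster, had 2121 and 1343 counts and a ratio of -0.02 (-0.12 to 0.08). Ndufs1, the largest subunit of the complex and the carrier of several clusters, had 2863 and 2069 counts and a ratio of 0.17 (0.09 to 0.26). These 3 form the entry path for electrons in the N module, and the interval of Ndufv2 held 0 while those of Ndufv1 and Ndufs1 lay above it.

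In the Q module, Ndufs3, one of the first subunits to be assembled, had 1966 and 1189 counts and a ratio of -0.08 (-0.19 to 0.02). Ndufs7, which carries the last cluster before ubiquinone, had 898 and 645 counts and a ratio of 0.17 (0.02 to 0.31). Ndufs8, with a pair of clusters, had 1021 and 831 counts and a ratio of 0.35 (0.21 to 0.48). The accessory members of the module, Ndufa5 and Ndufa9, had ratios of 0.10 and 0.09 with intervals that held 0. The 6 genes of the Q module had the narrowest middle 50% of the modules, 0.13 wide, around a median of 0.14.

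The accessory subunits of the N module varied more. Ndufa7 had 703 and 768 counts and a ratio of 0.77 (0.62 to 0.92), the highest of the module. Ndufa2 followed at 0.52, Ndufa12 at 0.50 and Ndufs6, a zinc-binding subunit needed late in assembly, at 0.40, each with an interval above 0. Ndufa6, a member of the LYR protein family that binds the acyl carrier protein Ndufab1, had a ratio of 0.08, and Ndufv3 had one of -0.09, both with intervals that held 0. Ndufs4, whose loss in mice causes a fatal brain disease of the Leigh type, was the lowest subunit of the assembled complex. It had 1357 and 649 counts, or 147 and 75.7 TPM (a level corrected for transcript length and library size), and was 1.34-fold lower in the synaptosome fraction (1.22 to 1.47). The counting intervals of Ndufa7 and Ndufs4 lay far apart, but the 2 were picked as the highest and lowest of the module.

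In the membrane arm, the parts at both of its ends had the higher medians. At the end near the Q module, the 4 genes of the ND1 part had a median of 0.44. All 4 had intervals above 0, as did 5200 of the 14153 genes tested. Ndufa13, also known as GRIM-19, led them with 1321 and 1451 counts and was 1.72-fold higher (1.59 to 1.85). It was followed by Ndufa3 at a log2 ratio of 0.52, Ndufa8 at 0.36 and Ndufa1 at 0.25. At the far end, the 6 genes of the ND5 part had a median of 0.59. Between them, the ND2 part had a median of 0.11 over 5 genes and the ND4 part one of 0.27 over 5 genes. For the ND4 part 7 genes were listed and 5 were found under their symbols, so the subunits given here are not the full set. With 4 to 6 genes in each part these medians are a description only.

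Ndufb9, in the ND5 part, was the member with the highest ratio and the only one past 2-fold on that side. It is a LYR protein that binds another copy of the acyl carrier protein. It lies on mm10 at chr15:58933810-58939489 on the plus strand. It had 2729 homogenate counts and 4033 synaptosome counts, and its level was 768 TPM and 1219.9 TPM. That made it 2.31-fold higher (2.20 to 2.42) by TMM. Its nearest followers lay well below it. Ndufa13 and Ndufa7 came next, then Ndufb2 with 338 and 348 counts and a log2 ratio of 0.69 (0.46 to 0.91). Ndufb8 had 1907 and 1954 counts and a log2 ratio of 0.68 (0.59 to 0.77). Ndufb11, in the ND4 part, had 1440 and 1396 counts and was 1.51-fold higher (1.41 to 1.63). With library totals in place of TMM, Ndufb9 had a log2 ratio of 0.71 and was no longer past 2-fold. The other 5 genes past 1.5-fold kept ratios above 0 with library totals, from 0.11 to 0.29.

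The other genes of the ND5 part split. Ndufb7 had a log2 ratio of 0.51 (0.35 to 0.66), while Ndufb3 was at 0.01 and Ndufab1, the mitochondrial acyl carrier protein that also serves fatty acid synthesis, at -0.06. In the ND4 part, Ndufb10 was at 0.34 and Ndufb4 at 0.27, both with intervals above 0, while Ndufb5 was at -0.02 and Ndufb6 at -0.15 with intervals that held 0. In the ND2 part, Ndufc1 was at 0.23 (0.04 to 0.41) and Ndufc2 at 0.11 (-0.04 to 0.26). Ndufa10, a kinase-like accessory subunit, had 2302 and 1329 counts and a ratio of -0.15 (-0.25 to -0.05). Ndufa11, a membrane subunit at the contact with complex III, had 883 and 474 counts and a ratio of -0.25 (-0.42 to -0.09).

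Counting error was smaller than the spread among subunits. Over the 36 complex I subunits, without Ndufa4 and Ndufa4l2, the counting interval of 23 excluded their common median of 0.24, and an interval was typically 0.14 wide to each side. How much of that spread another pair of libraries would repeat is not known.

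Some counts could not be given to 1 gene with certainty. Ndufs5 had 149 and 116 counts, far fewer than its neighbours in the complex, and a log2 ratio of 0.28 (-0.08 to 0.64). An exon of Ndufs5 overlaps by 218 bases, on the same strand, an exon of a gene listed as BC002163, which had 1185 and 925 counts. Summed, the pair had a ratio of 0.29 (0.17 to 0.40) and a level of 533 and 447 TPM. Ndufa13, Ndufa2, Ndufb11, Ndufs1 and Ndufa4l2 overlap a gene on the opposite strand by 26 to 344 bases. The libraries were made with a stranded kit, but the sources used here do not say whether counting used the strand. The partners of Ndufa13 and Ndufs1 had at most 49 counts in either library. Rbm10, the partner of Ndufb11 over 62 bases, had 1055 and 425 counts and a ratio of -0.67. The sum of both genes had a ratio of 0.19 (0.10 to 0.28) where Ndufb11 alone had 0.60. Such a sum takes in all counts of the partner, also those outside the overlap, so it is not an estimate for the member. Shmt2, the partner of Ndufa4l2, had 361 and 353, and that sum had a ratio of 0.48 (0.27 to 0.69), since Shmt2 holds most of its counts. Tmco6, the partner of Ndufa2, had 101 and 53, with a summed ratio of 0.45 (0.31 to 0.59) against 0.52 for Ndufa2 alone.

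Ndufa4 and Ndufa4l2 are counted as structural by name only. Ndufa4 was first purified with complex I and is now placed in complex IV, and Ndufa4l2 is its paralog, which is induced by hypoxia and known in brain from the mural cells of vessels. Ndufa4 was the most abundant member in the homogenate, with 4248 counts and 1675 TPM, and had 2300 counts and 975 TPM in the synaptosome fraction. It was 1.18-fold lower (1.12 to 1.24). Ndufa4l2 (chr10:127514939-127517156, plus strand) had 38 homogenate counts and 3 synaptosome counts, or 6.84 and 0.58 TPM. Its ratio was 8.11-fold lower, with a wide counting interval of 2.57 to 41.1. It passed the filter only through the homogenate, at 2.50 CPM against 0.219 CPM in the synaptosome fraction. The endothelial markers given above, also genes of vessels, were lower in the same pair, with a median log2 ratio of -3.07, and none of the 8 was at 0. Their part in the Ndufa4l2 ratio was not tested.

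The assembly factors had lower ratios than most subunits, and Ndufaf4 lay apart from the other 3. Ndufaf1 acts in the complex that builds the ND2 part. It had 347 and 212 counts and a log2 ratio of -0.07 (-0.32 to 0.18). Ndufaf2, a relative of Ndufa12 that holds its place on a late intermediate, had 268 and 129 counts and a ratio of -0.41 (-0.73 to -0.10). Ndufaf3 and Ndufaf4 bind each other and guide the early Q module. Ndufaf3 had 412 and 273 counts and a ratio of 0.05 (-0.18 to 0.27). Ndufaf4 (chr4:24898083-24905001, plus strand) had 581 and 148 counts, or 25.7 and 7.03 TPM, and was 2.51-fold lower in the synaptosome fraction (2.10 to 3.03). The partners Ndufaf3 and Ndufaf4 thus had counting intervals that did not overlap. Ndufaf4 also had the longest transcript of the family, 3632 bases.

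A further 4 assembly factors are listed under older symbols, which RefSeq pairs with newer Nduf names, and they were kept apart because the name rule does not take them. Ndufaf5 (listed as 2310003L22Rik), which hydroxylates Ndufs7, had 497 and 241 counts and a ratio of -0.40 (-0.63 to -0.18). Ndufaf7 (2410091C18Rik), a methyltransferase, had 712 and 375 counts and a ratio of -0.28 (-0.47 to -0.10). Ndufaf6 (2310030N02Rik) had 74 and 44 counts and a ratio of -0.11 (-0.68 to 0.45). Ndufaf8 (1810043H04Rik), which binds Ndufaf5, went the other way with 95 and 95 counts and a ratio of 0.64 (0.22 to 1.07). With these included, the 8 Ndufaf genes had a median of -0.19, and 2 of 8 were above 0.

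Assembly factors with other names also lay below most subunits. Their median was -0.34 against -0.24 for Ndufaf1 to Ndufaf4, but by the mean the order was the other way (-0.40 and -0.44). Of 10 such genes listed, 8 had a mean of at least 1 CPM, and Timmdc1 and Coa1 were not found under these symbols. None of the 8 was above 0, against 49.3% of all genes tested, and none was 2-fold lower, against 9.10%. Tmem126b, a partner of Ndufaf1, was the lowest with 215 and 77 counts and a ratio of -0.84. Ecsit, another partner of Ndufaf1, was the highest with 651 and 402 counts and a ratio of -0.05. Their median level was 48.8 TPM in the homogenate and 26.1 TPM in the synaptosome fraction, close to that of Ndufaf1 to Ndufaf4.

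**Figure D3:**
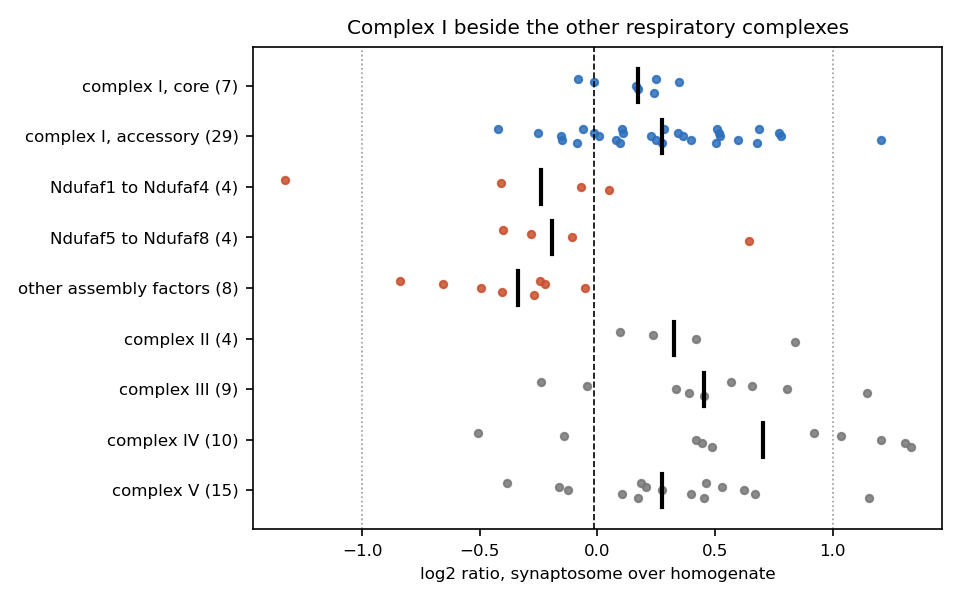
Log2 ratio of synaptosome over homogenate (x axis) for complex I subunits, assembly factors and the nuclear-encoded subunits of complexes II to V, with the number of genes in brackets. Points are genes, black bars are medians, the dashed line is the median of all genes tested (-0.01) and dotted lines mark 2-fold. The medians of the 3 rows of assembly factors lie below 0 and those of the subunit rows above 0.

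Beside the other respiratory complexes, complex I had the lowest median, 0.24, but that of complex V, 0.27, was close to it. That gap was smaller than the typical counting interval of a single complex I subunit, 0.14 to each side. The 36 complex I subunits, without Ndufa4 and Ndufa4l2, had a median of 0.24, with 1 at least 2-fold higher. The 38 subunits listed for complexes II to V had a median of 0.43, with 6 at least 2-fold higher and 0 lower. Of all genes tested 12.8% were at least 2-fold higher, and of those at 100 CPM or more 27.3% were, so 6 of 38 is near the former share and below the latter. Complex IV had the highest median, 0.70, from Cox5a at -0.51 to Cox4i1 at 1.33. Its list did not hold Ndufa4, whose ratio of -0.24 would lower that median. Complex III had 0.45, from Uqcrb at -0.24 to Uqcr11 at 1.15, complex II 0.33, from Sdhd at 0.09 to Sdhc at 0.84, and complex V 0.27, from Atp5g1 at -0.39 to Atp5e at 1.15. The subunits of complexes II to V were also more abundant, with a median of 550.3 TPM in the homogenate against 287 TPM for complex I. No test of these differences was possible.

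Levels within a library differed widely although most subunits are present in equal number in the complex. The 38 structural genes had a median of 287 TPM in the homogenate and 228 TPM in the synaptosome fraction, and the 4 assembly factors had 53.2 and 31.7 TPM. The median of all genes tested was 24.2 and 16.8 TPM. Of the 36 complex I subunits, 31 lay between 100 and 500 TPM in the homogenate. Ndufa4 at 1675 TPM, Ndufb9 at 768 TPM and Ndufa3 at 706 TPM were the highest members there, and Ndufaf1 at 40.0 TPM, Ndufaf4 at 25.7 TPM and Ndufa4l2 at 6.84 TPM the lowest. In the synaptosome fraction Ndufb9 came first and Ndufa4 second, followed by Ndufa3 at 697 TPM, and the lowest 3 were unchanged in order. Ndufa11, at 53.8 and 31.0 TPM, was the lowest subunit of complex I, and its listed transcript of 2661 bases was, after that of Ndufs1, the longest among them. A longer listed length gives a lower TPM for the same counts.

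**Figure D4:**
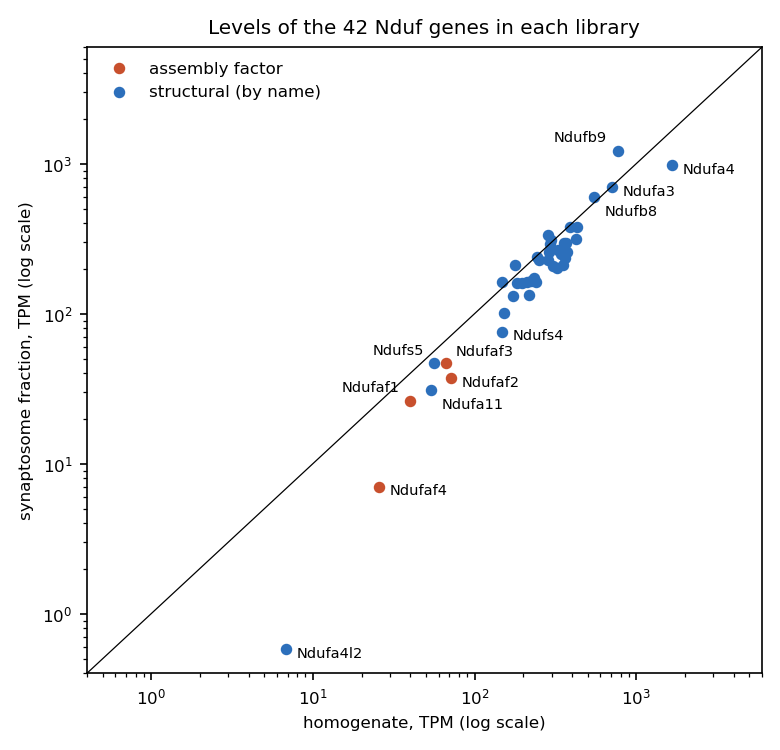
Level of each Nduf gene in TPM in the homogenate (x axis) and the synaptosome fraction (y axis), both on log scales, with the line of equal TPM. Most structural subunits (blue) lie between 100 and 500 TPM and just below the line, and the assembly factors (orange) lie lower. Above the line lie 6 structural genes, of which Ndufb9 is the farthest from it. By TPM the median log2 ratio of all genes tested was -0.55, so the typical gene also lies below the line.

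The order of the levels was much the same in both libraries. Across the 42 genes, Spearman's rho between the libraries' TPM was 0.93, and across the 36 complex I subunits it was 0.89. These are descriptions across genes, which are not independent replicates and share the same listed lengths in both libraries. Across the 42 members the log2 ratio went down with transcript length (rho -0.41), and with mean CPM rho was 0.22.

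Of the members, 3 had more than 1 transcript listed, and for 2 of them the mixture differed between these 2 libraries. How often the mixture differed among all genes with several transcripts was not computed. The count of 2 of 3 is thus a description and does not mark these genes out. Ndufv3 has a short and a long form, which differ by 1 exon of 1092 coding bases (chr17:31527310-31528401) that only the long form holds. The sequences below, from GENCODE transcripts on GRCm38, show where the forms part. Lower case is the end of the shared exon (chr17:31521663-31521692, plus strand), and capitals are the first 30 bases of the next exon, at chr17:31527310-31527339 in the long form and chr17:31531110-31531139 in the short form.
Ndufv3 long form: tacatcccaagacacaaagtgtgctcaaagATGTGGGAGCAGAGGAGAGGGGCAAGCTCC
Ndufv3 short form: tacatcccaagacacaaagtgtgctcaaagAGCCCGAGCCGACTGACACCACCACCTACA

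By coding length the short form has 104 codons and the long form 468. The short form had 833 counts in homogenate and 439 in synaptosomes, a log2 ratio of -0.28 (-0.45 to -0.11). The long form had 207 and 188, a ratio of 0.50 (0.21 to 0.80). The long form thus held 19.9% of the gene's counts in the homogenate (17.5 to 22.5) and 30.0% in the synaptosome fraction (26.4 to 33.7). Corrected for length, it held 6.14% and 10.1% of the gene's TPM. The gene as a whole, at a ratio of -0.09, does not show these differing ratios.

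Ndufs1 has 4 listed transcripts that share every coding exon and differ at the 5' end. Some have a first exon longer by 158 bases (chr1:63176428-63176822, minus strand), and some include an extra exon of 104 bases (chr1:63172154-63172257). Transcripts with the long first exon held 20.2% of the gene's counts in the homogenate (18.8 to 21.7) and 37.1% in the synaptosome fraction (35.0 to 39.2). The transcript with the short first exon and no extra exon had 2215 and 1302 counts, and its share went from 77.4% to 62.9%. Transcripts with the extra exon were few, at 3.60% (2.95 to 4.35) and 6.23% (5.23 to 7.36). With the short first exon that exon had 69 and 0 counts, and with the long first exon 34 and 129. Ndufs6 differed from both. Its noncoding form, with 53 and 48 counts, held 7.93% (6.00 to 10.2) and 8.51% (6.34 to 11.1) of the gene, and these intervals overlap. The intervals take the estimated counts as whole reads and leave out the error of assigning reads among forms that share most of their sequence.

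**Figure D5:**
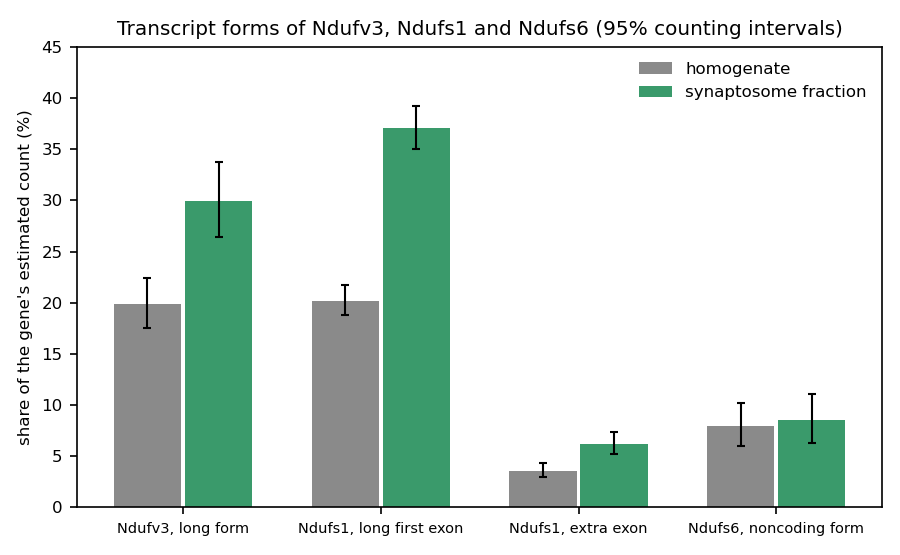
Share of the gene's estimated counts (y axis, percent) held by the long form of Ndufv3, by Ndufs1 transcripts with the long first exon or the extra exon, and by the noncoding form of Ndufs6, in the homogenate (grey) and the synaptosome fraction (green). Error bars are 95% Clopper-Pearson intervals. The intervals of the libraries are apart for Ndufv3 and Ndufs1 and overlap for Ndufs6.

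What the promoters share was looked at as a description, from RefSeq windows of 250 bases before to 50 bases after the start site (GRCm38), which were given for 37 of the 42 members. Nuclear respiratory factor 1 (NRF1) is an activator of many respiratory genes. Its core GCGCNTGCG, on either strand, was found in 10 of 37 members (27.0%), against 9.68% of all protein-coding genes. The stricter GCGCATGCG, which is 1 case of that core, was found in 3 members, Ndufaf4, Ndufa11 and Ndufa8 (8.11%), against 2.61%. The YY1 motif AAGATGGCG was found in 5 members (Ndufa9, Ndufc1, Ndufs4, Ndufs6 and Ndufs7), or 13.5%, against 2.14%. The ETS motif CCGGAAG (13.5% of members, 12.9% of protein-coding genes) and the SP1 motif GGGCGG (51.4% and 49.2%) were about as frequent as elsewhere. The 100 bases around the stricter NRF1 match are shown for the 3 genes that hold it. They come from chr4:24897933-24898032 (plus strand) for Ndufaf4, chr17:56717662-56717761 (plus strand) for Ndufa11 and chr2:36049339-36049438 (minus strand) for Ndufa8. Capitals mark the match, which in Ndufaf4 and Ndufa11 is a palindrome that matches on both strands.
Ndufaf4 promoter: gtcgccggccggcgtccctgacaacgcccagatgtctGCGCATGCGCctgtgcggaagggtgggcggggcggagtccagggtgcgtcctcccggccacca
Ndufa11 promoter: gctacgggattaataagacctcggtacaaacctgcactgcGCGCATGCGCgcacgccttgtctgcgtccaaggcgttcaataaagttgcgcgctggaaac
Ndufa8 promoter: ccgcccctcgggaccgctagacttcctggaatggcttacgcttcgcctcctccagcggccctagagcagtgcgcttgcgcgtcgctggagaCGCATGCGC

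The match begins at position -113 from the RefSeq start of Ndufaf4, at -60 from that of Ndufa11 and at -9 from that of Ndufa8. The log2 ratios of these genes were -1.33, -0.25 and 0.36, so holders of the motif lay on both sides of 0. A match is not a bound site, and the libraries measured RNA in 2 fractions, not transcription.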

How the data were processed

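Expected counts and TPM per transcript were deposited by the authors for 1 homogenate and 1 synaptosome library of mouse brain, with transcript lengths (per the file headers). The build was mm10, and RSEM 1.2.5, TopHat 1.3.3, edgeR 3.0.6 and FastQC are named, per the submitters' processing notes, without settings. A deposited table of both libraries holds a signal that was the summed count times 0.798 (homogenate) or 1.25 (synaptosome) within 0.5% for 97.2% and 97.4% of genes.

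Counts were summed per gene symbol and rounded. Scaling used TMM (edgeR 4.0.16, R 4.3.3), with factors 1.186 and 0.843, and exact 95% Clopper-Pearson intervals. Genes at 0 in a library got a floor of 3 counts. A gene was called at 2-fold with an interval excluding 0. PCR copies are not independent molecules, so intervals cover counting error only. Alternatives were library totals, DESeq2 1.42.0 size factors, TPM, the signal, other filters, a 1.5-fold rule and other memberships. On simulated counts for this comparison (14162 genes), 95.5% of intervals held the true ratio. Of 198 genes changed by 1.5 on the log2 scale, 193 were called, as were 35 of 13964 unchanged genes. The simulated counts held counting (Poisson) error alone and few changed genes. They check the calculation and cannot show how far another pair of libraries would differ.

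Members, lists, motifs and tests were chosen with earlier results of these data known. A rule chose the genes described in full, namely the 4 highest and 4 lowest ratios among subunits with at least 10 CPM, the core, all assembly factors, the 3 highest and 3 lowest levels, Ndufa4 and Ndufa4l2, and members with several transcripts. The files hold 0 rows on the mitochondrial chromosome, so the mitochondrially encoded subunits were not analysed here. The values of 1 member are not reported here, though counts and medians include it. Python 3.11.15, numpy 2.4.6, scipy 1.17.1 and pandas 2.3.3 were used.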

Additional observations from a re-analysis of the deposited data

How the results depend on the processing

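Scaling set the sign of the subunit ratios. With library totals in place of TMM, 0 members were at least 2-fold higher, the structural median was -0.26 and the assembly median -0.73. With deposited TPM the values were 0, -0.30 and -0.78. Under both, 27 of 38 structural genes and 1 of 4 assembly factors lay above the median of all genes, as with TMM, and 2 members were at least 2-fold lower. Library totals moved the share of all genes called from 12.8% higher and 9.10% lower to 4.49% and 25.6%. With DESeq2 size factors or the authors' signal, all 42 ratios lay within their counting intervals. With a mean of at least 10 CPM, 1 member was 2-fold lower, since Ndufa4l2 left the set, and at 1.5-fold 6 were higher. The difference between the structural and assembly medians lay between 0.30, without Ndufaf4, and 0.48, without Ndufa4 and Ndufa4l2, under the alternatives for which it was computed; leaving out Ndufaf4 and adding Ndufaf5 to Ndufaf8 (0.43) were chosen after seeing the data. No paired analysis was possible because each fraction has 1 library, and none could be left out. Depth limits mainly Ndufa4l2, at 3 synaptosome counts.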
